A study of Mus musculus with 4 samples.

Results

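Of the 22399 genes counted in 4 single-cell libraries of mouse olfactory epithelium, 34 odorant receptor genes carry a pseudogene symbol (Olfr, a number, then -ps). They were chosen by the form of the symbol, with earlier results of these data known. For comparison served 1102 receptor genes with a plain Olfr number, called intact receptors below. The libraries came from the main olfactory epithelium of untreated, wild-type C57BL/6J mice of 3 months, 2 from females (female 1 and female 2) and 2 from males (male 1 and male 2). The tissue was dissociated with papain, and transcripts were captured in droplets and read from their 5′ end, so that 1 UMI (unique molecular identifier) counts 1 captured RNA molecule. The labels give 1 sample per library and do not say whether a library held 1 animal or several, so p-values measure the spread between these samples. Per-library values are given in the order female 1, female 2, male 1 and male 2.

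Odorant receptors are G protein-coupled receptors of the sensory neurons of the nose. Each neuron is known to choose 1 receptor gene from a very large family, and the receptor protein feeds back to keep the other genes silent. A receptor gene with a broken reading frame can be chosen but makes no full receptor, and such neurons are known to choose again. Immature neurons are marked by Gap43, a growth cone protein, and mature neurons by Omp, the olfactory marker protein. Sustentacular cells, the supporting cells of the epithelium, are marked by the cytochrome P450 gene Cyp2g1.

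The label of pseudogene did not match the reading frames of these genes in the mouse reference annotation (GENCODE M21, build GRCm38). All 34 are listed there as protein coding, with an unbroken reading frame of 297 to 344 codons (median 314) that is closed by a stop codon. The intact receptors spanned 301 to 386 codons (median 313). Of the 34 frames, 33 began with ATG, the exception being the longest model of Olfr721-ps1, and 0 held an internal stop. RefSeq (GRCm38.p6) lists 32 of the 34 as pseudogenes and Olfr1532-ps1 and Olfr911-ps1 as coding. It also lists 3 of the 1102 intact receptors as pseudogenes. The annotation holds 299 receptor symbols of the -ps kind, and the 258 of them that are not listed as protein coding have no row in the count tables and were not analysed here. The other 41 have one, 34 under the same symbol, while 7 carry a plain Olfr symbol in the tables and are counted with the intact receptors. The genes described below are therefore called receptor genes with pseudogene symbols, and none was found here to have a broken frame. They lie on chromosome 2 (11 genes), chromosome 7 (7), chromosomes 9, 17 and 19 (3 each), chromosomes 10 and 13 (2 each) and chromosomes 5, 14 and X (1 each). The first and the last 150 bases of the frame of the most often held gene, Olfr1192-ps1, are shown because the frame between its start and its stop codon (in capitals) lacks the interruption that the symbol implies. The frame runs to base 930 with its stop codon, and the gene lies on the plus strand at chr2:88648509-88659772.
Olfr1192-ps1: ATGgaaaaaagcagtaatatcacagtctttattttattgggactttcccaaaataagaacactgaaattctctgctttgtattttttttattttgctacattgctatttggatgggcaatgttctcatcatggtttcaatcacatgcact
Olfr1192-ps1: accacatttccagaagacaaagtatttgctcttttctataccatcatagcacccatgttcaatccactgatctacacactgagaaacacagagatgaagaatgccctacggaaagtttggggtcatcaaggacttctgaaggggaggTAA

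Several of the genes have near copies, which limits what their counts can say. The closest other receptor coding sequence was over 95% identical for 11 of the 34 genes and over 90% identical for 19, with a median of 92.4%. For 8 of the 34 that closest sequence was another gene with a pseudogene symbol. The 3 closest pairs are shown around the first base at which their coding sequences part, in 45-base windows with the differing base in capitals, because 5′ reads that end before that base cannot tell the coding sequences of the pair apart.
Olfr1315-ps1: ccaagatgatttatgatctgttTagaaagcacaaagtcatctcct
Olfr1316: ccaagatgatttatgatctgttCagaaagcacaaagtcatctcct
Olfr1532-ps1: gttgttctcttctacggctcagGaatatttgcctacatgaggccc
Olfr707: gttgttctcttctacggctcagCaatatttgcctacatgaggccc
Olfr764-ps1: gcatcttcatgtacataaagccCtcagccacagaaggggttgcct
Olfr766-ps1: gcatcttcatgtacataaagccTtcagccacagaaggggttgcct
Counted from 1 at the start codon, the first differences were T264C between Olfr1315-ps1 and Olfr1316, G764C between Olfr1532-ps1 and Olfr707, and C828T between Olfr764-ps1 and Olfr766-ps1. Olfr1315-ps1 differed from the intact Olfr1316 at 8 of 942 bases, Olfr1532-ps1 from the intact Olfr707 at 10 of 921, and Olfr764-ps1 from Olfr766-ps1 at 7 of 975. Olfr1191-ps1, the third most often held of the 34, differed from the intact Olfr1193 at 21 of 933 aligned bases, the first of them G38T. Counts of these genes are uncertain, since the treatment of reads that fit several genes is not given in the sources used here.

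The libraries held 100725429 to 111577458 UMIs over 10256 to 10777 barcodes. After barcodes with fewer than 500 genes or over 10% mitochondrial UMIs and the likely doublets were removed, 8869 to 9339 cells per library remained, with median depths of 8288 to 9106 UMIs. Library pairs shared 136 to 172 barcode sequences. Cells were gated by Omp, Gap43 and Cyp2g1 per 10000 UMIs, which gave 17774 mature neurons, 2100 immature neurons and 6512 sustentacular cells, and 9999 cells fell in none of the 3 gates. The summed level of 5 mature markers was 15291 to 15884 CPM (UMIs per 1000000) in the mature gate and 1592 to 1702 in the immature gate. That of 5 immature markers was 499 to 550 in the mature gate and 7229 to 8251 in the immature gate. These sums include Omp and Gap43, which set the gates, so part of the difference was fixed in advance. Each of the other markers was also higher in its own gate in every library. Rtp1 had 654 to 748 CPM in the mature and 347 to 357 in the immature gate, and Stmn2 388 to 417 and 2814 to 3053.

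A cell was said to hold a receptor when it had at least 3 of its UMIs. By that measure 29 of the 34 genes (85.3%) were held by some cell, against 1006 of 1102 intact receptors (91.3%). In all, 637 of the 36385 cells held a gene with a pseudogene symbol, 168, 169, 164 and 136 per library. A gene was held by a median of 12.5 cells, against 12 for an intact receptor, and 23 of the 34 (67.6%) were held in all 4 libraries, against 62.3% of intact receptors. Together the genes had 34370 UMIs, against 1568570 for the intact receptors.

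The cells were spread unevenly over the genes. Olfr1192-ps1 was held by 27, 26, 18 and 20 cells, more than any other of the 34, and ranked 42 among all 1136 receptor genes. Olfr1326-ps1, the only one on the X chromosome, was held by 11, 27, 19 and 17 cells, lowest in female 1. Olfr1191-ps1 was held by 22, 18, 17 and 3 cells, so that male 2 stood well below the others. Olfr718-ps1, the only one on chromosome 5, was held by 9, 15, 13 and 10 cells. Olfr1224-ps1 was held by 34 cells in all, Olfr721-ps1 by 32, Olfr1025-ps1 by 31 and Olfr1369-ps1 by 29. Olfr1438-ps1 was held by 1, 7, 6 and 7 cells and Olfr1493-ps1 by 9, 2, 5 and 1 cells, and these counts differ widely between libraries of the same sex. At the low end, Olfr104-ps was held by 1 cell and Olfr106-ps and Olfr896-ps1 by 2 each. These were the least held of the 29.

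**Figure D1:**
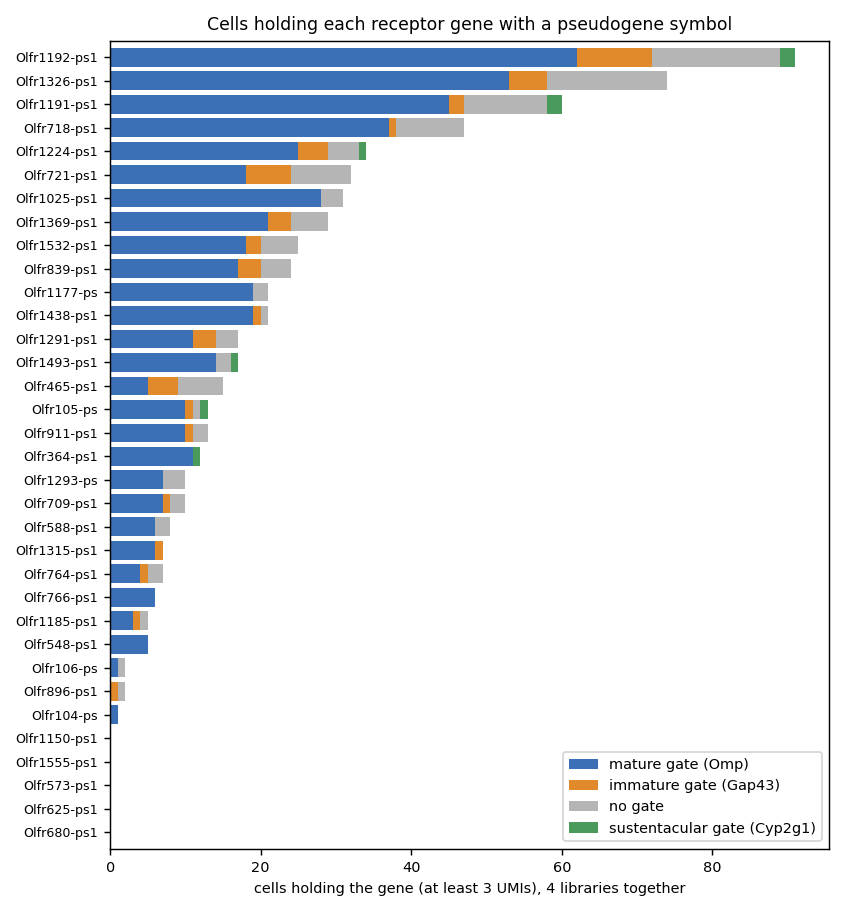
Number of cells with at least 3 UMIs of each of the 34 genes (x axis, cells of the 4 libraries together), with bars split by gate. Olfr1192-ps1 leads with 91 cells, of which 62 were in the mature gate, and 5 genes have no bar.

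No cell held 5 of the genes, and 3 of them had no UMI in any library: Olfr573-ps1, Olfr625-ps1 and Olfr680-ps1, all on chromosome 7. Olfr1150-ps1 had 2 UMIs and Olfr1555-ps1 had 5. The 3 genes without a UMI are also the only 3 of the 34 whose annotated transcripts start at the coding sequence, with no bases before it. Their first 30 bases, with the start codon in capitals, show where these models begin.
Olfr573-ps1: ATGataaatttgaatggatcacttaccagt
Olfr625-ps1: ATGacaacatcttcaaacactttaaattat
Olfr680-ps1: ATGgtatctcccaacaacacaggggttcag
Among intact receptors, 65 models likewise lacked bases before the coding sequence, and 22 of these (33.8%) were held by some cell, against 984 of the 1037 models that had them (94.9%). The other 31 genes with pseudogene symbols all had UMIs, and 29 of them (93.5%) were held. A count of 0 over these libraries was therefore seen together with the short models, and the part of the models in it was not tested.

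Cells holding these genes were neurons for the most part. They made up 2.99%, 2.74%, 2.69% and 2.12% of mature-gated cells and 2.24%, 2.75%, 2.38% and 2.38% of immature-gated cells. In sustentacular cells, which do not choose receptors, the share was 0.0599%, 0.318%, 0.124% and 0% (0 of 1656 cells, exact upper limit 0.223%), although these cells were deeper (median 13205 UMIs against 7988 in the mature and 10522 in the immature gate). At 1 UMI the share was 4.20% ± 0.965 in sustentacular cells, 5.68% ± 0.517 in mature and 7.81% ± 0.910 in immature neurons (SD, n = 4 libraries). A single UMI was therefore not read as holding a gene. After every cell was thinned to 2000 UMIs the shares at 3 UMIs were 2.41% ± 0.312 in mature neurons, 1.41% ± 0.261 in immature neurons and 0% in sustentacular cells (SD, n = 4), with 759, 27 and 298 shallower cells left out.

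The share of cells that held one of the genes was close in the mature and the immature gate, within the spread of the libraries. The difference, mature minus immature, was 0.200 percentage points, with mature higher in 2 of 4 libraries (exact paired permutation test, two-sided, p = 0.5). In thinned cells it was 0.993 points and mature was higher in 4 of 4 libraries (exact p = 0.125, the smallest that 4 libraries allow). Intact receptors were held by 93.5% ± 0.574 of mature and 69.5% ± 2.92 of immature cells, and in thinned cells by 91.5% ± 0.591 and 55.3% ± 1.73 (SD, n = 4). Set against cells holding any receptor, the genes were the top receptor of 2.92%, 2.81%, 2.54% and 2.01% of mature cells and of 2.76%, 3.29%, 2.92% and 3.29% of immature cells. The immature share was higher in 3 of 4 libraries, by 0.496 points on average (exact p = 0.25). The immature values rest on 10 to 12 cells per library. Benjamini-Hochberg adjustment over the 11 exact tests made on these genes gave no value under 0.229.

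In neurons whose top receptor was one of these genes, the median count of that receptor was 56.5, 57.5, 46.5 and 42 UMIs per mature cell, against 66, 59, 60 and 55 for intact receptors, so that it was below in each library although the ranges overlap. The mean log2 ratio was -0.25 (exact p = 0.125, the smallest possible). The cells also had lower median depth, with medians of 7716, 8108, 6741 and 7458 UMIs against 8463, 8164, 8004 and 7672, and per 10000 UMIs the log2 ratio was -0.17. The part of depth was not tested beyond this scaling. The top receptor took 97.8%, 97.7%, 96.4% and 96.7% of the receptor UMIs of such a cell, against 97.7% to 98.0% with an intact one.

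Single genes spanned most of the range seen among intact receptors. Over the 24 genes held by at least 5 mature cells the medians ran from 7 to 207 UMIs, and their median was 48, against 59 over 756 intact receptors with medians from 4 to 392.5. Olfr465-ps1 was highest with 207 UMIs over 5 mature cells, followed by Olfr548-ps1 with 146 over 5. The most held gene, Olfr1192-ps1, had a median of 85.5 UMIs over 62 cells. Olfr1326-ps1 had 27 over 53 cells and Olfr1191-ps1 had 15 over 45, both below it. Olfr1177-ps was lowest, with 7 UMIs over 19 cells. Values were compared without length correction, since a UMI counts a molecule and not its length.

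**Figure D2:**
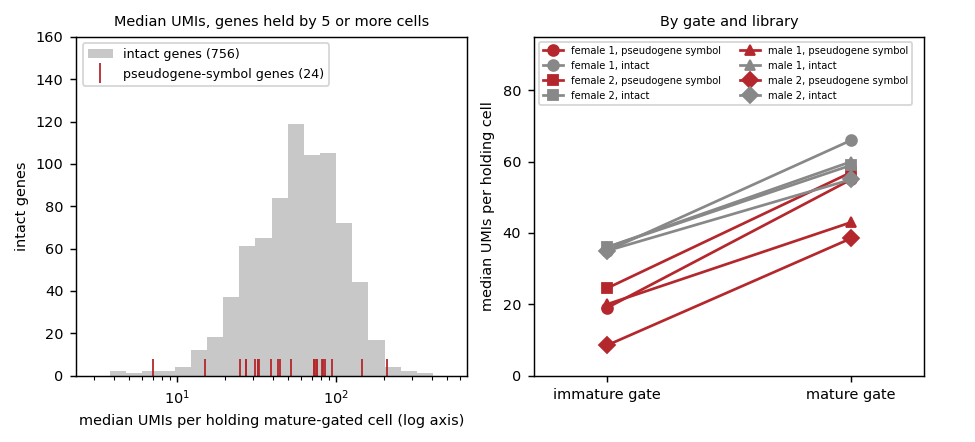
Left, median UMIs per holding mature-gated cell (log axis) for 756 intact receptors (grey histogram, y axis number of genes) and the 24 genes with pseudogene symbols (red ticks), all held by 5 or more cells. Right, median UMIs per holding cell in each library and gate. Each red line, from 8.5 to 24.5 in the immature gate, runs below the grey line (intact receptors) of the same library. Across libraries the mature values overlap, 38.5 to 57 in red against 55 to 66 in grey.

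By gate, the median for cells holding one of the genes was 19, 24.5, 20 and 8.5 UMIs per immature cell against 55, 57, 43 and 38.5 per mature cell, and the groups did not overlap. The mean log2 ratio of mature over immature was 1.51 for these genes and 0.75 for intact receptors, which went from 35, 36, 36 and 35 UMIs to 66, 59, 60 and 55. The difference between the 2 log2 ratios was 0.75 and had the same sign in 4 of 4 libraries (exact p = 0.125, the smallest possible). Each immature median rests on 12 to 14 cells. Both sets include cells whose top receptor was of the other kind. The genes held differ between the gates, and the part of this makeup in the ratio was not tested.

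Most neurons that held one of these genes held no intact receptor at 3 UMIs. Of 468 such mature cells, 59 also held an intact receptor at 3 UMIs, 14 of 134, 11 of 119, 21 of 119 and 13 of 96 per library, or 12.7% ± 3.75 (SD, n = 4). The other 409 held the gene alone. Among mature cells that held an intact receptor, 5.68% ± 0.50 held a further intact one, which is lower in 4 of 4 libraries (difference 7.04 points, exact p = 0.125, the smallest possible). That base counts cells, and a cell with 2 intact receptors is met from both sides when one asks, gene by gene, how often a receptor is accompanied. Counted once per gene held, the intact value was 11.3% ± 0.788, and the difference fell to 1.39 points, with the genes higher in 2 of 4 libraries (exact p = 0.625). Without Olfr1177-ps the share was 10.3% ± 2.65, 1.03 points below the intact value per gene held (exact p = 0.5). Neither of these differences was larger than the spread between libraries. The shares depend on the cut. With 1 UMI of an intact receptor as the cut, 374 of the 468 cells were accompanied, or 80.1% ± 4.97. For cells holding an intact receptor that value was 76.8% ± 1.82 (SD, n = 4). With 2 UMIs as the cut for all receptors, 132 of 506 cells were accompanied.

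The accompanied cells were deeper and had higher doublet scores. Their median depths were 13250, 15489, 9232 and 8384 UMIs, against 7618, 7819, 6741 and 7655 in cells that held the gene alone. Their median doublet scores were 0.68, 0.66, 0.54 and 0.48, against 0.38, 0.47, 0.39 and 0.34. The part of depth and doublets in the accompanied share was not tested. In the immature gate 8 of 51 cells were accompanied, 2 of 13, 3 of 14, 2 of 12 and 1 of 12, or 15.5% ± 5.41 (SD, n = 4), and the mature share minus the immature share was -2.73 points, within the spread (exact p = 0.75).

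**Figure D3:**
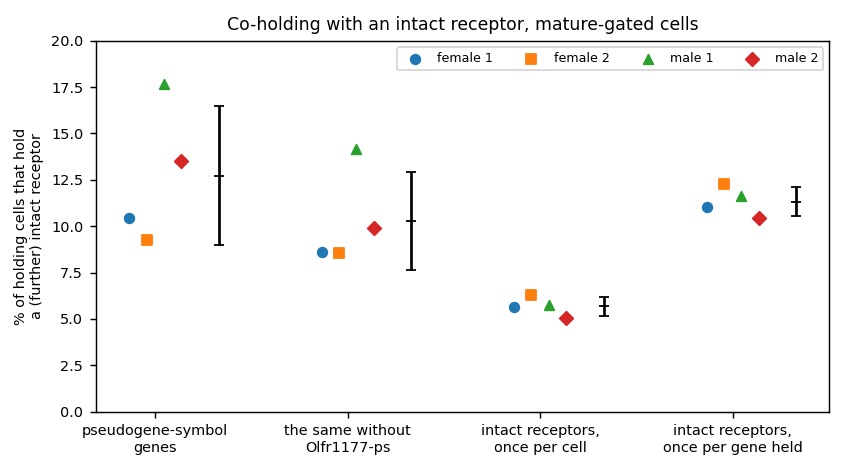
Share of holding mature-gated cells that also hold an intact receptor (y axis, percent), for the genes with pseudogene symbols, the same without Olfr1177-ps, and intact receptors counted per cell or per gene held. Points are the 4 libraries and bars the mean ± SD, and the first column (12.7%) overlaps the last (11.3%).

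Olfr1177-ps stood apart from the other genes. Of its 19 mature cells, 13 (68.4%) held an intact receptor, and in 10 cells from 3 libraries this was Olfr1176. The genes lie tail to tail on opposite strands of chromosome 2 with 83 bases between them, Olfr1176 at chr2:88336721-88342048 on the plus strand. In the 10 shared cells Olfr1177-ps had a median of 5 UMIs and Olfr1176 a median of 131, and Olfr1177-ps was the higher one in 0. The shared cells were 52.6% of those with Olfr1177-ps and 50% of the 20 with Olfr1176. Over genes held by at least 10 mature cells, a single intact partner was present in more than 25% of the cells for 1 of 17 genes with pseudogene symbols (5.88%) and for 12 of 522 intact receptors (2.30%). Partners with pseudogene symbols were not counted there, so Olfr1176 is not among the 12. The coding sequences were 74.4% identical over their best 383 aligned bases, so this was not a pair of near copies. With 19 cells Olfr1177-ps fell just below the minimum of 20 for the test of single genes.

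Other partners were scattered. Olfr1326-ps1 was accompanied in 8 of 53 mature cells by 8 different intact receptors, among which the rule for ties gave Olfr341. Olfr1192-ps1 was accompanied in 5 of 62 by 5 different ones, with Olfr1019 named by the same rule. Olfr1493-ps1 was accompanied in 6 of 14 cells, in 3 of them by Olfr1494, a receptor 11744 bases away. In these cells Olfr1493-ps1 had a median of 42 UMIs and Olfr1494 a median of 3. A test of single genes over 270 receptors called 4 (1.48%), all accompanied more often than average (edgeR quasi-likelihood test). It called 0 of the 7 genes with pseudogene symbols that could be tested. An unadjusted p under 0.05 was found for 0 of the 7, against 18 of all 270. With few accompanied cells per gene, that count does not show that the genes are alike. In 2 cells there were 2 of the 34 genes, both in male 1 and both with Olfr1191-ps1 and Olfr1192-ps1. These genes lie 70 bases apart on the same strand, and 12 of the 60 cells that held Olfr1191-ps1 had at least 1 UMI of Olfr1192-ps1.

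UMIs of the genes were summed per library and gate to compare the gates gene by gene. A sum joins the number of holding cells and the UMIs per cell, and these cannot be told apart in it. Of the 20 genes that passed the filter on low counts, 10 were higher in mature than in immature neurons and 0 were lower. Over all 13695 genes tested, 36.9% were higher and 37.3% lower at the same threshold, an edgeR adjusted p under 0.05. Intact receptors were higher in 61.4% of 664 tested and lower in 0.753%, so the genes moved in the direction of receptors at large. The median log2 fold change was 2.99 over the 20 (also with Olfr548-ps1, which had no immature UMI, at its lower bound) and 2.98 over the intact receptors.

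Olfr548-ps1 had 6.72, 5.93, 5.36 and 2.79 CPM in mature neurons and no UMI in any immature library. Most of its mature UMIs came from 5 cells (2, 1, 1 and 1 per library), with a median of 146 UMIs. Against a floor of 3 UMIs over the group the ratio was at least 39.4-fold, for counting error of UMIs only. With 5 holding cells among 17774 mature cells, their absence from 2100 immature cells does not show a difference between the gates. Olfr1025-ps1 had 29.6, 17.4, 12.1 and 10.9 CPM in mature and 0.151, 0, 0.390 and 0.389 in immature neurons (log2 fold change 6.49, SE 0.47, edgeR adjusted p = 2.94e-05). Olfr364-ps1 had 8.70, 7.58, 10.1 and 2.44 against 0.151, 0.177, 0.195 and 0.194 CPM (5.49, SE 0.34, edgeR adjusted p = 1.38e-05). In both genes the gates did not overlap, but the immature values are 1, 1, 1 and 1 UMIs for Olfr364-ps1 and 1, 0, 2 and 2 for Olfr1025-ps1. Holding cells numbered 11 mature and 0 immature for Olfr364-ps1, and 28 and 0 for Olfr1025-ps1. By number of cells neither passed (edgeR adjusted p = 0.466 for each). With 11 holding cells among 17774 mature cells, absence of Olfr364-ps1 holders from 2100 immature cells does not show a difference between the gates. Olfr718-ps1 went from 1.51, 0.885, 2.34 and 1.75 to 11.7, 28.5, 19.6 and 13.5 CPM (3.67, SE 0.33, edgeR adjusted p = 7.75e-05). Olfr1177-ps had 383 UMIs in mature and 2 in immature neurons, a ratio of CPM of 30.4 (exact 95% interval 8.36 to 252, counting error only). Olfr911-ps1, Olfr1369-ps1, Olfr105-ps, Olfr1493-ps1 and Olfr1326-ps1 made up the rest, with log2 fold changes from 1.81 in Olfr1326-ps1 to 4.54 in Olfr1493-ps1. The gates overlapped in Olfr1369-ps1, Olfr105-ps and Olfr1493-ps1, whose immature UMIs lay mostly or all in female 1. They numbered 100, 4, 1 and 2 for Olfr1369-ps1, 17, 0, 0 and 0 for Olfr105-ps, and 4, 0, 0 and 1 for Olfr1493-ps1. Olfr1493-ps1 had 408, 3, 114 and 63 mature UMIs, most of them in female 1, and without that library it did not pass the filter on low counts. Olfr105-ps and Olfr1326-ps1 were the weakest of the 10 by adjusted p, at 0.0414 and 0.0157 (edgeR).

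Other genes did not pass, some with high immature levels. Olfr1192-ps1 had 64.4, 44.4, 18.3 and 24.6 CPM in mature and 1.20, 38.9, 47.0 and 4.08 in immature neurons, where the libraries differed most (log2 fold change 1.15, SE 0.89, edgeR adjusted p = 0.280). Olfr465-ps1 had 10.5, 11.1, 0.143 and 6.85 against 16.4, 21.4, 18.1 and 0 (log2 fold change -0.76, edgeR adjusted p = 0.653). Olfr721-ps1 had 9.31, 2.81, 8.95 and 1.54 against 6.78, 12, 0.779 and 9.33 (-0.26, edgeR adjusted p = 0.827). The immature sums come from few cells, 10 for Olfr1192-ps1, 4 for Olfr465-ps1 and 6 for Olfr721-ps1, so a single neuron can set a library's value.

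**Figure D4:**
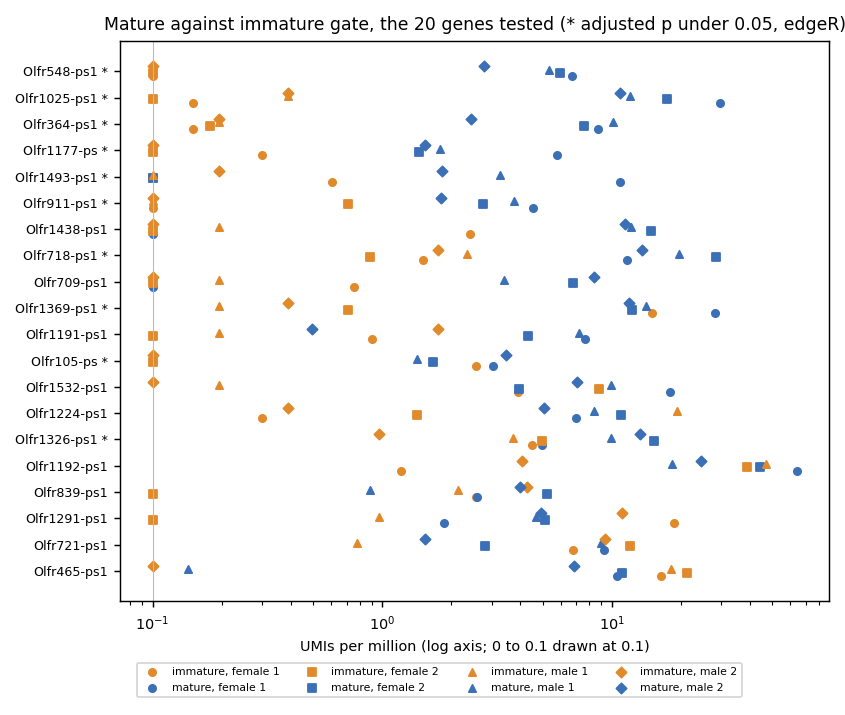
CPM (x axis, log scale, values under 0.1 drawn at 0.1) of the 20 tested genes in mature-gated (blue) and immature-gated (orange) cells, 1 symbol per library. Stars mark the 10 genes with an adjusted p under 0.05. The colours overlap for Olfr1192-ps1, Olfr721-ps1, Olfr465-ps1 and others, among them the starred Olfr1369-ps1, Olfr105-ps and Olfr1493-ps1.

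By number of holding cells no gene passed. Of 17 genes held by at least 10 neurons, 0 passed between the gates in cells per gated cell (edgeR quasi-likelihood test), against 1 of 567 receptors tested (0.176%). Immature holding cells are few, so these 0 calls do not show that the gates are alike. An unadjusted p under 0.05 was found for 1 of the 17, against 47 of all 567 receptors. This was Olfr1025-ps1, with 9, 7, 6 and 6 mature cells and 0 immature cells in each library. Olfr721-ps1 lay on the other side, with 6, 2, 8 and 2 mature and 1, 2, 0 and 3 immature cells (log2 fold change -1.47, SE 0.87, edgeR adjusted p = 0.466).

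No gene of the 34 passed the same test between males and females. In mature neurons 26 genes could be tested by their UMIs and 0 were called, against 1 of 14176 genes overall (0.00705%). An unadjusted p under 0.05 was found for 4 of the 26, a share near that of intact receptors (141 of 876). Over all 14176 genes it was found for 892. The 4 genes were Olfr766-ps1, Olfr1192-ps1, Olfr1025-ps1 and Olfr1315-ps1. Olfr766-ps1 had 1 and 2 UMIs in females and 309 and 170 in males, where it was held by 0, 0, 4 and 2 cells (edgeR adjusted p = 0.171). Olfr1192-ps1 had 64.4 and 44.4 CPM in females and 18.3 and 24.6 in males, without overlap (log2 fold change, male over female, -1.31, SE 0.24, edgeR adjusted p = 0.650). Olfr1025-ps1 had a log2 fold change of -1.0 (SE 0.28) and Olfr1315-ps1 one of -4.06 (SE 1.15). DESeq2 called these same 4 genes, among 251 genes in all, from 2 libraries per sex. By number of holding mature cells, 0 of 7 genes and 0 of 270 receptors passed (0%, edgeR). In that test 2 of the 7 had an unadjusted p under 0.05, against 18 of all 270. The 2 genes were Olfr1192-ps1 with 24, 17, 10 and 11 cells and Olfr1191-ps1 with 21, 11, 12 and 1. Without male 1 Olfr1191-ps1 was called lower in males (edgeR adjusted p = 0.0418), and without female 2 Olfr1438-ps1, absent from mature cells of female 1, was called higher in males by UMIs. Each of these fits has 1 library in a sex, which is assumed to vary like the others.

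Mature neurons that held one of the genes and no intact receptor were compared with mature neurons that held exactly 1 intact receptor, 409 against 15615 cells summed per library. Both groups had passed the mature gate, so their Omp levels are not compared. Of the 409 neurons 0 held a trace amine, vomeronasal or Ms4a receptor or the guanylyl cyclase Gucy2d at 3 UMIs (a count of 0 allows up to 0.733%). Such cells were rare among the 15615 too. There 7 held a trace amine receptor, 0 a Vmn1r and 3 a Vmn2r vomeronasal receptor, 11 an Ms4a receptor and 6 Gucy2d. The count of 0 therefore does not set the 409 neurons apart. Of 12044 genes tested, 92 differed (0.764%), 15 higher and 77 lower in the 409 neurons (edgeR adjusted p under 0.05). None of the 14 tested genes for receptor choice and feedback was among them (Lhx2, Ldb1, Ebf and Emx2 factors, Kdm1a, Atf5, Atf4, Hspa5 and others, median log2 fold change 0.00), nor were the zone markers Nqo1, Acsm4, Ncam2, Nfix, Nfia and Nfib. For Atf5, a factor of the receptor feedback pathway, the log2 fold change was -0.05 (edgeR adjusted p = 0.891).

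Of 15 genes for transduction and receptor transport 5 were lower and 0 higher, with a median log2 fold change of -0.15 over the list against -0.01 over all genes. Stoml3, a stomatin-like membrane protein of the cilia, had 8166 ± 850 CPM in the 409 neurons and 10629 ± 351 in the others (SD, n = 4), without overlap (log2 fold change -0.41, SE 0.04, edgeR adjusted p = 1.28e-06). Cnga4, a subunit of the olfactory cyclic nucleotide channel, had 463 ± 27.3 against 565 ± 3.68 (-0.31, SE 0.06, edgeR adjusted p = 0.00351). Gnal, the olfactory G protein alpha subunit, Gng13, a gamma subunit, and the chloride channel Ano2 fell by 0.21, 0.21 and 0.34 on the log2 scale. Adcy3, Cnga2, Rtp1 and Rtp2 did not pass the test.

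Of 8 genes linked to activity or receptor identity, 3 were higher and 4 lower. Calb2, the calcium-binding calretinin, had 85.0 ± 59.3 CPM against 361 ± 36.7 (log2 fold change -2.07, SE 0.17, edgeR adjusted p = 4.37e-08). The axon sorting molecule Kirrel3 had 36.5 ± 4.70 against 98.3 ± 5.10 (-1.46, SE 0.12, edgeR adjusted p = 1.73e-08), and its relative Kirrel2 had 1358 ± 233 against 1101 ± 145 (0.27, SE 0.05, edgeR adjusted p = 0.00256). Cd55, a complement regulator, had 281, 486, 284 and 365 CPM against 193, 221, 209 and 170, without overlap (0.80, SE 0.09, edgeR adjusted p = 4.95e-06). S100a5, a calcium-binding protein that follows neuronal activity, was higher by 0.26, and Cidea and the creatine kinase Ckb fell by 0.72 and 0.27. Of 11 immature neuron genes only Dpysl3 passed, with a log2 fold change of 0.83.

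The genes with the lowest p outside the lists were of several kinds. Higher in the 409 neurons were Olig1, Nphs1, Sorbs2, Metrnl, Fetub and Pcdh8, with log2 fold changes from 0.25 in Fetub to 0.96 in Nphs1. Lower were Hbb-bs, Hbb-bt, Tuba4a, B830017H08Rik, Cd36 and Fxyd2. The beta globins Hbb-bs (log2 fold change -3.80) and Hbb-bt (-3.73) are genes of red blood cells, and in the neurons with 1 intact receptor 10 of the 15615 cells held 92.6% of the Hbb-bs UMIs and 90.9% of those of Hbb-bt. The 4 globin genes Hbb-bs, Hbb-bt, Hba-a1 and Hba-a2 summed to 8.70 to 24.5 CPM in the 409 neurons and to 164 to 293 in the others. Markers of ensheathing glia (0 to 10.2 against 2.40 to 21.8 for 4 genes) and macrophages (0 to 10.9 against 2.0 to 24.0 for 3 genes) were lower in 4 of 4 libraries too, with S100b at 0 in the 409 neurons. Sustentacular markers were not (235 to 536 against 265 to 341 for 5 genes, lower in 1 of 4 libraries). The part of such cells in the count of 77 was not tested.

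Single receptors varied widely within the 409 neurons. Over the 14 genes held alone by at least 10 cells, Cd55 ran from 0 CPM in Olfr911-ps1 to 2721 in Olfr839-ps1. Its level was above that of the neurons with 1 intact receptor (196) in only 3 of the 14, among them Olfr1192-ps1, and below it in 11, although the summed value was higher. Leaving out Olfr839-ps1 took the pooled log2 ratio of Cd55 from 0.85 to 0.27. S100a5 was above the reference in 5 of the 14 and below it in 9, with 48831 in Olfr911-ps1 and 4781 in Olfr1369-ps1. Kirrel3 was below in 11 of 14 and 0 in Olfr839-ps1, while Olfr1369-ps1 had 129 against a reference of 97.4. Calb2 and Cd36 were below the reference in all 14, with Calb2 from 11.5 in Olfr1191-ps1 to 227 in Olfr1369-ps1. This reference pools the neurons of all intact receptors. How many single intact receptors lie below it was not counted, so the counts out of 14 cannot be set against those of intact receptors. Stoml3 was below in 10 of 14 and Cnga4 in 7 of 14. Gnal, lower in the sums, was above the reference in 8 of 14, and its pooled log2 ratio went from -0.17 to -0.10 without Olfr1326-ps1. Olig1, Nphs1 and Pcdh8, higher in the sums, were below it in 10, 9 and 8 of 14. Leaving out 1 receptor took the pooled log2 ratio of Nphs1 from 0.97 to 0.34 (Olfr1191-ps1), of Olig1 from 0.62 to 0.32 (Olfr1192-ps1) and of Pcdh8 from 0.45 to 0.22 (Olfr1326-ps1). Without Olfr1326-ps1 that of Kirrel2 went from 0.33 to 0.19 and that of S100a5 from 0.27 to 0.14, and without Olfr1192-ps1 that of Fetub went from 0.28 to 0.15. The test over libraries treats the 409 neurons as 1 group, so it cannot tell a property of genes with pseudogene symbols from the makeup of these particular receptors, of which Olfr1192-ps1 gave 57 cells, Olfr1326-ps1 45 and Olfr1191-ps1 42.

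**Figure D5:**
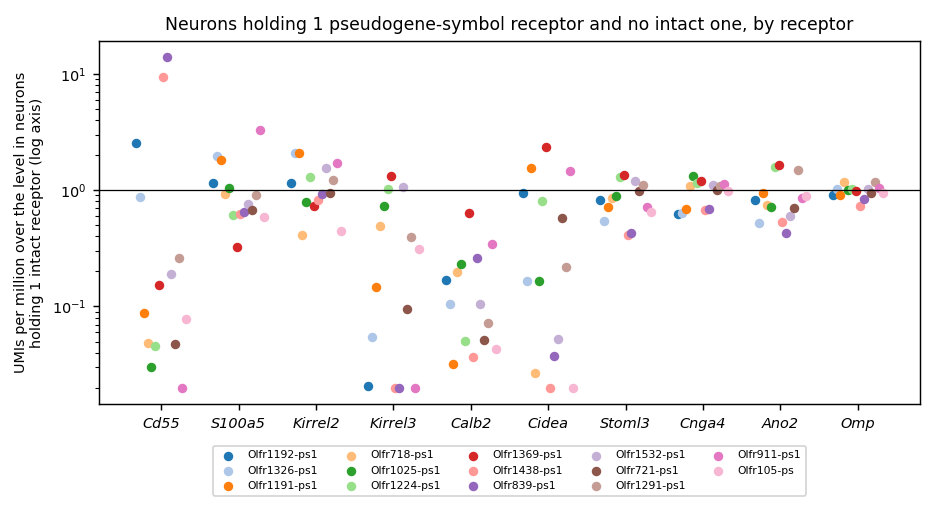
Level of 10 genes in neurons holding each of 14 receptor genes with pseudogene symbols and no intact receptor, divided by the level in neurons holding 1 intact receptor (y axis, log scale, ratios under 0.02 drawn at 0.02). Each colour is 1 receptor and the line marks a ratio of 1, with Calb2 below the line in all 14 and Cd55 above it in 3. Single intact receptors were not set against the line.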

How the data were processed

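The 4 deposited matrices of raw UMI counts per gene and barcode were used as the authors made them, with no normalization. The matrix headers name Cell Ranger 6.0.2 and the submitters' processing notes Cell Ranger 5.0.1 and mm10, and the annotation used for counting is not given in the sources used here. GENCODE M21 holds 22285 of the 22399 gene IDs.

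The 34 genes and all gene lists were chosen with earlier results of these data known. Barcodes with fewer than 500 genes or over 10% mitochondrial UMIs were left out. In each library the highest doublet scores (2 simulated doublets per barcode, 50 neighbours, 30 principal components of 2000 genes, scikit-learn 1.9.0) were removed at 0.8% per 1000 barcodes. Gates per 10000 UMIs were, for mature, Omp at least 10, over 4 times Gap43 and Cyp2g1 under 5, for immature, Gap43 at least 5, above Omp and Cyp2g1 under 5, and for sustentacular, Cyp2g1 at least 10 with Omp under 10 and Gap43 under 5. Holding a receptor meant at least 3 UMIs. Named genes were all 34, every list gene that passed, the 10 with the lowest p in each direction (1 gene is not reported here), and the most frequent intact partner of genes accompanied in at least 5 mature cells.

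Counts or cells summed per library were tested with edgeR 4.0.16 (R 4.3.3, quasi-likelihood, Benjamini-Hochberg over all features, threshold 0.05). UMI sums had TMM scaling and filterByExpr. Cell numbers had no TMM scaling, and the number of gated cells was the library size (minimum 10 cells by stage, 20 otherwise). For accompanied cells the library size was the total of cells of each kind. Library was a block in all main fits except those between the sexes. DESeq2 1.42.0, other UMI minima, stricter gates, kept doublets, a replicate block and leaving out each library were alternatives. SE is the log2 fold change over the root of F. Shares were compared with exact paired permutation tests over 4 libraries (smallest p 0.125). Percentages carry exact Clopper-Pearson 95% limits where stated, for counting error only. Coding sequences were compared with BLAST+ 2.17.0. Library pairs differed by a chi-square of 21.8 to 41.7 per gene, so none was a copy. All fits were tested on simulated data.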

Additional observations from a re-analysis of the deposited data

Results flagged for a closer look

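Cells outside the 3 gates entered none of the comparisons, and 110 of these 9999 cells held a receptor gene with a pseudogene symbol (1.10%, 0.769% to 1.33% by library), against 0.123% of sustentacular cells. Intact receptors were held by 34.0% of the cells outside the gates and by 7.83% of sustentacular cells. Among the 4012 cells outside the gates with at least 5 Cyp2g1 UMIs per 10000, 66.4% held an intact receptor and 1.89% one of the genes. Of the 110, 76 had at least 5 Cyp2g1 UMIs per 10000 and a median depth of 4540 UMIs, 18 had Omp at or above the mature limit with Cyp2g1 below 5, and 16 had little of either.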

How the results depend on the processing

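The 637 holding cells became 749 at 2 UMIs, 586 at 5, 541 at 10 and 745 with doublets kept. The excess of accompanied cells over the count per cell of intact receptors was 3.35 to 13.1 points under the settings planned (5.42 to 8.39 with 1 library left out). Chosen after seeing the data, counting per gene held gave 1.39, leaving out Olfr1177-ps 4.61, and both together -1.03. The log2 ratio of UMIs per cell kept its sign in every setting run, from -0.17 per 10000 UMIs to -0.41 without Olfr1192-ps1 (-0.33 to -0.21 with 1 library left out). The 10 genes higher in mature neurons became 9 to 15, and 15 of 20 with DESeq2. Leaving out libraries gave 9 to 12, with Olfr105-ps and Olfr1326-ps1 lost in some. Olfr1493-ps1 fell below the filter on low counts without female 1 and with stricter gates. By sex, DESeq2 called 4 genes by UMIs, and leaving out libraries gave 0 to 1 by UMIs and 0 to 1 by cells, each with 1 library left in a sex, whose spread is assumed from the others. At 2 UMIs the test of accompanied cells called 1 gene, Olfr1177-ps. For neurons that held no intact receptor, the 92 genes that differed became 61 with DESeq2, 201 without the filter and 175 with stricter gates. With 1 library left out they became 49 to 117, 49 without male 1. Of the genes named in that comparison, 14 passed under every setting run, and 0 changed direction. Without Olfr1192-ps1, Olig1, Sorbs2, Metrnl, Fetub, Gnal and Dpysl3 no longer passed. Without male 1, Nphs1, Metrnl, Pcdh8, Gng13, Ano2 and Dpysl3 did not. Without female 2, Gnal, Gng13, Ano2 and Dpysl3 did not, without female 1 Metrnl and Fetub, without male 2 Gnal, with DESeq2 Cd36, Ano2 and Dpysl3, and with doublets kept Ano2 and Dpysl3. The cause was not tested.

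Replicate numbers match between the sexes, but same-numbered libraries did not deviate together (r = 0.03 across 12079 genes, which are not independent). With the replicate block 0 of the genes with pseudogene symbols were called by UMIs and 0 by cells, and over all 14176 genes 1 was called by UMIs. The number of cells limits the immature gate, whose cells are deeper than mature ones: each library holds 12 to 14 cells with these genes.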
